A study of Phaseolus vulgaris with 21 samples.

Results

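Ferritin transcripts were followed across the leaf and the nectaries of common bean, Phaseolus vulgaris, in its cultivar Blue Lake 274. The 2 transcripts described are FERRITIN, annotated in soybean as a ferritin light chain, and SFERH-2, annotated as a ferritin. They are 2 of the 6359 rows of the deposited table, taken because a description there carries the symbol FERRITIN or SFERH-2 in parentheses. They were chosen with their levels over the tissues in view, so those levels are given as a description, without a test. A further ferritin row, SFERH-4, was not among the chosen transcripts and was tested.

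The study compared 7 tissues, each with 3 libraries, all from plants of that cultivar grown on soil at 23 °C under 16 h days and 8 h nights. These were leaf, extrafloral nectaries (EFN) at the foot of terminal trifoliate leaves (leaf EFN), EFN on the stem beside lateral trifoliate leaves (stem EFN), and floral nectaries dissected at 4 stages. By the labels the floral stages were pre1 (24 h ahead of anthesis), pre2 (12 h ahead), the secretory stage (3 h after dawn, with the flower fully open) and post (later by a further 12 h). If anthesis is placed at the hour of the secretory stage, pre1 and secretory nectaries shared a clock hour, as did pre2 and post nectaries. No hour is given for leaf or EFN. No label says whether libraries of a tissue came from separate plants, so the p-values below measure the spread between libraries, which may be technical.

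Ferritin is the protein shell in which cells keep iron in a soluble and unreactive form. In plants it is encoded by a small family of nuclear genes and carried mainly into plastids, and its transcripts are known to rise when iron is plentiful. In legumes it is best known from seeds and root nodules. Nectaries are rich in plastids, which in many floral nectaries hold starch before secretion.

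Bean reads were counted by the authors on soybean transcripts, so each name here is that of a soybean transcript and not of a bean gene. All 3 ferritin rows carry the same Arabidopsis match, ferritin 4 (FER4), and reads of 1 bean ferritin may have been split among them. For that reason the sum of the 3 rows is given below beside the single rows. Values are the authors' upper-quartile normalized counts, rounded to whole numbers, and summed over the table to between 2616502 and 4270943 per library. Transcript lengths were not used, so levels are compared between tissues and, apart from ranks within a library, not between genes.

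The labels were checked against marker transcripts. The 5 leaf mesophyll rows summed to between 50764 and 135408 in leaf, to 10406 to 32746 for leaf EFN, to 30323 to 38203 for stem EFN, and to 63 to 98 in floral nectaries. The 7 nectary rows, chosen from floral nectary genes of Arabidopsis, summed to between 40346 and 227244 in floral nectaries and to no more than 2420 in leaf or EFN. The row that matches CRC, a regulator of nectary formation (LOC100500026), was listed at 0 in every leaf and EFN library, so these rows do not check the EFN labels. The floral nectary row LOC100816972 stood at 1, 13 and 21 in stem EFN libraries 1, 2 and 3, against 3084 to 11831 in floral nectaries. Some results on stem EFN are therefore also given from library 1 alone, while others rest on all 3 libraries. Carpel rows, 3 in number, summed to between 1090 and 3696 in floral nectaries and to no more than 206 elsewhere. No pollen row was matched.

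FERRITIN was high in the leaf EFN and in the pre2 floral nectary, and lower in the other 5 tissues. In such bulk samples more cells of a type and more RNA per cell cannot be told apart. In leaf its normalized value was 3900, 1206 and 859 in libraries 1, 2 and 3. The leaf EFN libraries stood at 13962, 20724 and 16938. Those of stem EFN stood at 817, 2235 and 4998. Every leaf EFN library thus stood above every leaf and stem EFN library, while leaf and stem EFN overlapped.

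In the floral nectary FERRITIN began at 4662, 1686 and 4605 in the 3 pre1 libraries. At pre2, 12 h later, it stood at 18433, 26318 and 22329. At the secretory stage it was 7481, 6392 and 10730, and at post it was 10411, 6031 and 4775. The 3 pre2 libraries were above all other floral libraries, and the secretory and post libraries overlapped with each other but lay above all pre1 libraries.

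Ranked by normalized value, which is not per length, among the 6359 rows of a library, FERRITIN was 16th, 5th and 9th in leaf EFN and 21st, 13th and 19th in pre2 nectaries. It was 92nd, 420th and 667th in leaf. It made up 0.454% to 0.722% of the table's total in leaf EFN and 0.432% to 0.627% in pre2 nectaries, against 0.0277% to 0.127% in leaf.

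**Figure D1:**
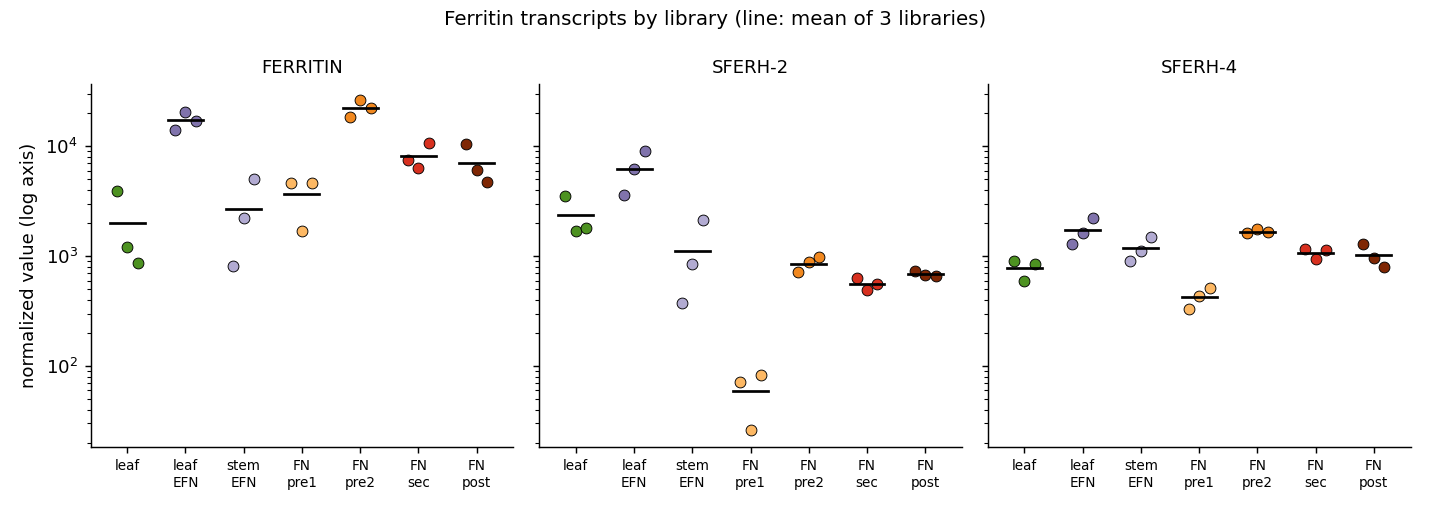
Normalized value (log axis) of FERRITIN, SFERH-2 and SFERH-4 in each of 21 libraries, grouped by tissue, with 3 points per tissue and a line at their mean; EFN, extrafloral nectary; FN, floral nectary. FERRITIN is highest in leaf EFN and pre2, SFERH-2 is lowest in pre1 with values of 26 to 82, and SFERH-4 spans the smallest range.

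As group means, FERRITIN stood at 22360 ± 3943 (SD, n = 3) in pre2 and 17208 ± 3389 in leaf EFN, and these overlapped. On the share of the table the leaf EFN range reached higher than the pre2 range, so the order of the top pair depends on the scale. The secretory nectary followed at 8201 ± 2257, below leaf EFN without overlap by a ratio of means of 2.10. Next came post at 7072 ± 2959, which overlapped with the secretory nectary. The pre1 nectary stood at 3651 ± 1702, below post without overlap. Stem EFN at 2683 ± 2126 overlapped with pre1, and leaf at 1988 ± 1665 overlapped with stem EFN. From the lowest mean to the highest, leaf to pre2, FERRITIN spanned 11.2-fold. The share of all rows without overlap was not computed for leaf EFN against the secretory nectary or stem EFN, or for post against pre1. Nothing is read from these separations.

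The spread between libraries of a tissue was uneven for FERRITIN. Its coefficient of variation was 17.6% in pre2 and 19.7% in leaf EFN, but 83.7% in leaf and 79.2% in stem EFN. In leaf, library 1 alone carried the high value, and in stem EFN each library was more than double the next lower one.

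SFERH-2 had a different order of tissues. In leaf its normalized value was 3556, 1678 and 1803. The leaf EFN libraries stood at 3611, 6221 and 9005, and those of stem EFN at 378, 853 and 2131. The lowest leaf EFN library stood barely above the highest leaf library, and stem EFN overlapped with leaf.

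In the floral nectary SFERH-2 was at 71, 26 and 82 in pre1. It was at 711, 888 and 973 in pre2. At the secretory stage it stood at 629, 491 and 563, and at post it stood at 737, 676 and 662. The pre1 libraries were therefore far below all others, whereas the later stages lay close together and all floral libraries lay below all leaf libraries.

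Its mean was highest in leaf EFN at 6279 ± 2697 (SD, n = 3), without overlap with leaf at 2346 ± 1050.0. Stem EFN at 1121 ± 907 overlapped with leaf above it and with pre2 at 857 ± 134 below it. Post at 692 ± 39.9 overlapped with pre2. The secretory stage at 561 ± 69.0 lay below post without overlap, by a ratio of means of 1.23. The pre1 nectary closed the order at 59.7 ± 29.7, and the secretory mean was 9.40 times as high. Between leaf EFN and pre1, SFERH-2 spanned 105-fold, against the 11.2-fold span of FERRITIN.

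Within a library SFERH-2 ranked 21st to 99th in leaf EFN and 98th to 279th in leaf. In pre1 it ranked 4081st to 5203rd, in the lower part of the table. In pre2 it ranked between 807th and 1141st.

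Set against leaf, both ferritins were higher in leaf EFN. The difference of group means on the log2(value + 1) scale was 3.41 for FERRITIN and 1.41 for SFERH-2, with ratios of means of 8.65 and 2.68. Both were without overlap, as were 28.1% of all rows tested in that direction. Because the transcripts were chosen on these levels, nothing is read from that share.

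In stem EFN against leaf, FERRITIN differed by 0.39 and SFERH-2 by -1.32 on the log2 scale, and both overlapped. The FERRITIN difference changed sign when stem EFN library 3 or leaf library 3 was left out, with values ranging from -0.24 to 1.07 over the libraries left out 1 at a time. With stem EFN library 1 alone it was -0.96. For SFERH-2 the difference was -0.71 without stem EFN library 1, -1.96 without library 3 and -2.54 with library 1 alone. Library 1 was the lowest stem EFN library for both ferritins, so the values from it alone are those of an extreme library.

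Floral nectaries as a whole, with the 4 stages weighted equally, differed from leaf by 2.31 for FERRITIN and by -2.59 for SFERH-2 on the log2 scale. Only SFERH-2 was without overlap, as were 15.7% of rows in the lower direction. The FERRITIN difference was 2.96 without leaf library 1, which carried the highest leaf value. The comparisons with leaf share the same 3 leaf libraries.

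From pre1 to pre2 both ferritins were higher without overlap, as were 25.9% of all rows. FERRITIN differed by 2.74 on the log2 scale, a ratio of means of 6.12, and SFERH-2 by 3.97, a ratio of 14.4. Without pre1 library 2, the lowest for both, the differences were 2.25 and 3.46. The 7 nectary rows summed to between 96201 and 194670 in pre1 and 211992 and 227244 in pre2, and the 3 carpel rows to 2634 to 3414 and 3481 to 3696. The part of these markers in the ferritin difference was not tested.

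From pre2 to the secretory stage both ferritins were lower without overlap, as were 26.9% of rows. FERRITIN differed by -1.47 and SFERH-2 by -0.61 on the log2 scale, so pre2 means were 2.73 and 1.53 times as high as secretory ones. Over the same step the nectary rows were lower, at 82743 to 126513 in secretory libraries, as were the carpel rows, at 1869 to 2126, and their part was not tested. From the secretory stage to post, FERRITIN differed by -0.26 with overlap. That value rested on single libraries: it was -0.58 without post library 1, -0.42 without secretory library 2, -0.05 without secretory library 3 and -0.02 without post library 3. SFERH-2 differed by 0.31 without overlap, as did 13.6% of rows in the higher direction.

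At stages 24 h apart, the secretory stage stood above pre1 by 1.28 for FERRITIN and by 3.36 for SFERH-2 on the log2 scale. Both were without overlap, as were 31.8% of rows in that direction. Leaving out pre1 library 2 brought the FERRITIN difference to 0.79. Post differed from pre2 by -1.73 for FERRITIN, without overlap, as did 31.7% of rows in the lower direction. For SFERH-2 the same pair of stages differed by -0.30 and overlapped.

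The balance of the 2 ferritins also differed between tissues, and is given as a description of transcripts chosen on their levels. The ratio of FERRITIN to SFERH-2 was 0.476, 0.719 and 1.10 in the 3 leaf libraries, taken from the lowest. It was 1.88 to 3.87 in leaf EFN and 2.16 to 2.62 in stem EFN. In the floral nectary it was highest in pre1, at 56.2 to 65.7, and then 22.9 to 29.6 in pre2, 11.9 to 19.1 at the secretory stage and 7.21 to 14.1 at post. The ranges of the floral stages did not overlap with those of leaf and EFN, and only secretory and post overlapped among the floral stages. The share of other pairs of rows that separate in this way was not computed, so nothing is read from it. Since transcript length is the same in every tissue, the ratio can be compared across tissues, although its absolute size cannot be read as a ratio of molecules. The ratio also depends on how bean reads were assigned to the 2 rows.

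**Figure D2:**
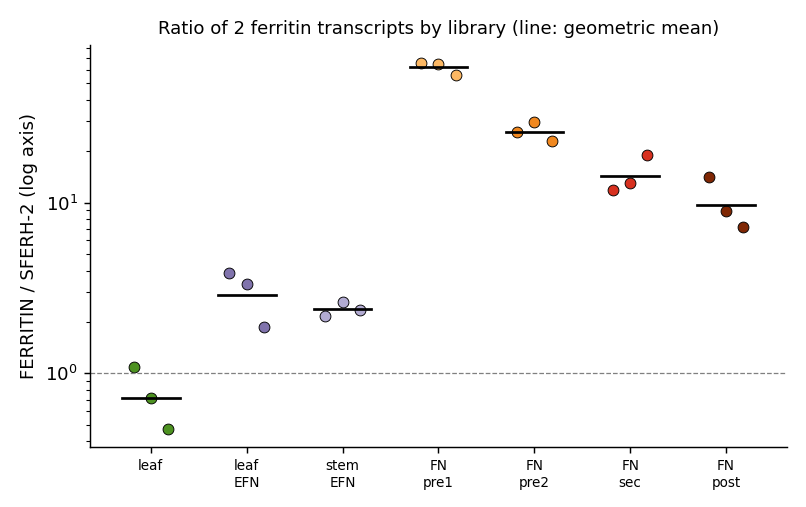
Ratio of the FERRITIN value to the SFERH-2 value (log axis) in each of 21 libraries by tissue; a line marks the geometric mean of 3 libraries and the dashed line a ratio of 1. Leaf lies at 0.476 to 1.10, both EFN between 1.88 and 3.87, and the floral stages between 7.21 and 65.7, highest in pre1.

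Although the tissues were ordered differently, the deviations of the 2 ferritins from their tissue means went together when all tissues were pooled. Over the 21 libraries Pearson's r of log2 values was 0.32 and Spearman's rho 0.34. After the group means were subtracted, r of the deviations was 0.86. Tissues with a wide spread weigh most in this pooled r. The coefficient of variation of FERRITIN and SFERH-2 was 79.2% and 80.9% in stem EFN, but 17.6% and 15.6% in pre2. The r of other pairs of rows was not computed. In stem EFN and post the order of the libraries was the same for both, as the values above show, and in the other tissues it was not. Libraries share their preparation and depth, and this r is a description over points that share them. Reads of 1 bean ferritin may also be split between the rows, and the part of this in r was not tested.

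If each read was counted once, on 1 of the 3 ferritin rows, their sum does not depend on how reads were split. Whether that held is not known here. The sum of the 3 rows had its highest means in leaf EFN and pre2. It was 25201 ± 5485 (SD, n = 3) in leaf EFN and 24891 ± 4112 in pre2. It stood at 9841 ± 2359 at the secretory stage and 8780 ± 3241 at post. Leaf at 5122 ± 2811, stem EFN at 4980 ± 3327 and pre1 at 4136 ± 1727 made up the low end. In leaf EFN the 3 rows held 0.895% of the table's total on average, and in pre1 0.109%.

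The makeup of that sum also differed between tissues. FERRITIN supplied 35.2% of it in leaf, 68.9% in leaf EFN and 50.0% in stem EFN, but 79.6% to 89.7% as stage means in the floral nectary. SFERH-2 supplied 47.3% in leaf, 24.3% in leaf EFN and 20.97% in stem EFN. In the floral nectary the SFERH-2 share was 1.40% at pre1, 3.46% at pre2, 5.86% at the secretory stage and 8.45% at post. These shares depend on how reads were assigned.

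SFERH-4, the ferritin row that was not among the chosen transcripts, allowed tests, with limma on log2(value + 1) and Benjamini-Hochberg adjustment over all 6351 rows. It rose in leaf EFN against leaf, rose from pre1 to pre2 and fell between pre2 and post. If its reads come in part from the bean genes behind the other rows, it is no independent witness of them. Its values were 912, 599 and 852 in leaf, while the leaf EFN libraries stood at 1299, 1633 and 2211 and those of stem EFN at 911, 1122 and 1495.

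In the floral nectary SFERH-4 stood at 330, 432 and 515 in pre1 and at 1608, 1769 and 1643 in pre2. It then stood at 1164, 935 and 1139 at the secretory stage and at 1280, 972 and 795 at post. All pre2 libraries were above all other floral libraries, and all pre1 libraries were below them.

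The rise of SFERH-4 in leaf EFN was 1.11 on the log2 scale (SE 0.23, adjusted p = 0.000743, limma), where 28.4% of all rows rose. From pre1 to pre2 it rose by 2.00 (SE 0.23, limma adjusted p = 1.38e-05), where 12.4% of rows rose. The secretory stage stood 1.36 above pre1 (SE 0.23, limma adjusted p = 0.000113), where 25.2% of rows rose. Each of these calls passed with any 1 library left out, and the largest adjusted p was then 0.00611 in leaf EFN.

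Post stood below pre2 for SFERH-4 by a log2 difference of -0.75 (limma adjusted p = 0.0166), where 20.1% of rows fell. That call was lost without pre2 library 2 (limma adjusted p = 0.0527) and without post library 3 (0.0949). SFERH-4 did not pass in stem EFN against leaf (0.57), in floral nectaries against leaf (0.26), from pre2 to the secretory stage (-0.64) or from the secretory stage to post (-0.11). From pre2 to the secretory stage SFERH-4 was lower without overlap, as were 26.9% of rows. Its change from the secretory stage to post differed from its change from pre1 to pre2 by -2.10 on the log2 scale (SE 0.33, limma adjusted p = 0.000387), a contrast in which 14.6% of all rows passed and 9.87% passed in that direction.

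The authors' own calls were available for pairs of tissues. FERRITIN and SFERH-2 were chosen with their levels in view, so nothing is read from the calls on them. In the authors' deposited table, FERRITIN, SFERH-2 and SFERH-4 were all called different between pre1 and pre2, as were 18.9% of the 6359 rows. In the authors' deposited table all 3 were also called between pre2 and the secretory stage, as were 29.9% of rows. None of the 3 was called between the secretory stage and post in the authors' deposited table, where 9.86% of rows were. Between leaf EFN and stem EFN the authors' deposited table called 2.06% of rows, and FERRITIN and SFERH-2 were among them while SFERH-4 was not. Against the secretory nectary, the authors' deposited table called all 3 in leaf EFN, with 53.8% of rows, and only FERRITIN of the 3 in stem EFN, with 50.0% of rows.

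The rows most like each ferritin were sought among 4219 rows with a mean of at least 100, by Pearson's r of log2 values over the 21 libraries. For FERRITIN the closest was PPCK3, a kinase of phosphoenolpyruvate carboxylase, with r of 0.78. A germin-like row (LOC100791628, 0.77), a MYB row (LOC100791795, 0.76), a B-box row (LOC100808780, 0.74) and a Cue-domain row (LOC100809549, 0.74) followed. For SFERH-2 the closest was variant X3 of LOC100785643, a YSL1-like carrier of metal bound to nicotianamine, with r of 0.86. An EF-hand row (LOC102665931, 0.85), the unnamed LOC100305934 (0.84), a row with a senescence regulator domain (LOC100796494, 0.84) and a mannanase (LOC100814337, 0.83) followed. The lists of 5 did not overlap with each other. They depended on the measure: with Spearman's rho, 1 of 5 stayed for FERRITIN and 2 of 5 for SFERH-2, and on the 7 group means 1 of 5 stayed for each.

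Outside FERRITIN and SFERH-2, 43 rows matched the iron lists (ferritin, vacuolar storage, uptake, movement, regulators, iron-sulfur assembly, heme, iron enzymes and related superoxide dismutases). In leaf EFN against leaf 6 of them rose and 15 fell, or 48.8% called against 46.9% of all rows, of which 28.4% rose and 18.5% fell. Their median log2 difference was -0.30, against 0.13 for all rows. In stem EFN 5 rose and 15 fell, or 46.5% against 34.8% (22.3% rose and 12.5% fell among all rows), with a median of -0.29 against 0.11, and from stem EFN library 1 alone, whose spread is then taken from the other tissues, 12 were called. In floral nectaries against leaf 14 rose and 17 fell, or 72.1% against 75.8% (48% and 27.8% among all rows). With values rescaled by median ratios that split became 11 to 21, and with equal upper quartiles 10 to 22, since these move the median of all rows from 0.38 to 0.11 and 0.04. Among all rows called in stem EFN against leaf, the share that rose went from 64.1% to 51.6% with median ratios.

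From pre1 to pre2, where both ferritins were higher, 9 of the 43 rose and 7 fell, or 37.2% against 19.5% of all rows (12.4% and 7.05%), with a median of 0.11 against 0.02. Without pre1 library 1, 10 were called. Among all rows called in this step the share that rose went from 63.8% to 52.2% with equal upper quartiles. From pre2 to the secretory stage 6 rose and 5 fell, or 25.6% against 21.4%, and 7 were called without pre2 library 2 and 5 without pre2 library 3 or secretory library 1. From the secretory stage to post 1 rose and 1 fell, or 4.65% against 5.73%, and 1 was called without any 1 of the secretory libraries or without post library 2 or 3. The secretory stage differed from pre1 in 13 that rose and 15 that fell, or 65.1% against 45.9% (25.2% and 20.7% among all rows), and post from pre2 in 5 and 12, or 39.5% against 38.2% (18.1% and 20.1%). With median ratios the latter split became 8 to 11.

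Of 9 loci listed for vacuolar iron storage and release, 2 rows were matched. LOC100807991, a homolog of the vacuolar iron transporters that load iron into the vacuole, followed the floral course of FERRITIN in direction. It was 97, 129 and 151 in pre1, and 579, 659 and 633 in pre2. It then stood at 228, 233 and 326 at the secretory stage and at 316, 168 and 72 at post. It rose by 2.32 from pre1 to pre2 (SE 0.47, limma adjusted p = 0.00184) and post lay below pre2 (log2 difference -1.99, limma adjusted p = 0.00241). The steps from pre2 to the secretory stage and from there to post did not pass. From pre2 to the secretory stage it was lower without overlap, as were 26.9% of rows. In floral nectaries against leaf it rose by 1.26 (limma adjusted p = 0.00458), with overlap. In leaf EFN, where FERRITIN was high, LOC100807991 stood at 42, 31 and 112 against 78, 158 and 77 in leaf, and did not pass.

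DMT1, a ferrous iron carrier of the NRAMP family, had its highest floral mean at the secretory stage. The mean was 564 ± 21.4 (SD, n = 3) in pre1, 699 ± 42.9 in pre2, 1209 ± 221 at the secretory stage and 697 ± 65.0 at post. The secretory stage stood 1.08 above pre1 (limma adjusted p = 4.62e-06), and leaf EFN stood below leaf (log2 difference -0.95, limma adjusted p = 2.08e-05). Floral nectaries also stood below leaf for DMT1 (-0.69, limma adjusted p = 1.11e-05), with overlap. LOC102666945, matched to NRAMP1 and also to an unrelated SKP1-like gene, was the 1 row of the uptake list and rose in floral nectaries by 1.81 (limma adjusted p = 2.14e-08). It fell in leaf EFN (-0.98, limma adjusted p = 0.00168) and at post against pre2 (-1.29, limma adjusted p = 0.000195). The secretory stage lay below pre1 (-0.72, limma adjusted p = 0.0147), a call lost without pre1 library 2 (0.0866). It also matches NRAMP6, and is the 1 row that fell in the movement list below.

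Of the 8 rows for iron movement between cells and organelles, 6 rose and 1 fell between pre1 and the secretory stage, with a median log2 difference of 1.29 against 0.00 for all rows, of which 25.2% rose and 20.7% fell. The 6 include both variants of LOC100785643 and both of LOC100799897, which may share reads, so they stand for 4 genes. Variant X3 of LOC100785643, the row most like SFERH-2, had means of 51.0 in pre1, 192 in pre2, 239 at the secretory stage and 250.3 at post. It was named for its likeness to SFERH-2 in these libraries, so its floral course is given here without a test. For the same reason nothing is read from its place among the 6. Variant X1 of the same gene, matched to YSL1 and YSL3 of Arabidopsis, had a mean of 1086 in leaf and between 15.3 and 94.0 in floral stages (log2 difference -4.79, limma adjusted p = 1.46e-12). YSL1, annotated as a YSL7-like carrier, rose in leaf EFN, from 121, 75 and 116 in leaf to 507, 487 and 488 (log2 difference 2.27, SE 0.29, limma adjusted p = 5.28e-06). It also rose in stem EFN, at 129, 363 and 284 (log2 difference 1.21, limma adjusted p = 0.00342), a call lost from library 1 alone (0.534) and with only leaf and stem EFN libraries in the model (0.0507). Its highest floral mean was at post, 1.77 above pre2 (limma adjusted p = 0.000102). Variant X1 of LOC100799897, a YSL6 match, rose in floral nectaries by 3.81 (limma adjusted p = 7.95e-10). Variant X2 of that gene did not pass there (0.27, limma adjusted p = 0.132). Its means were 828 in leaf and 650 to 1453 in floral stages, against 13.3 and 91.0 to 335 for variant X1.

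**Figure D3:**
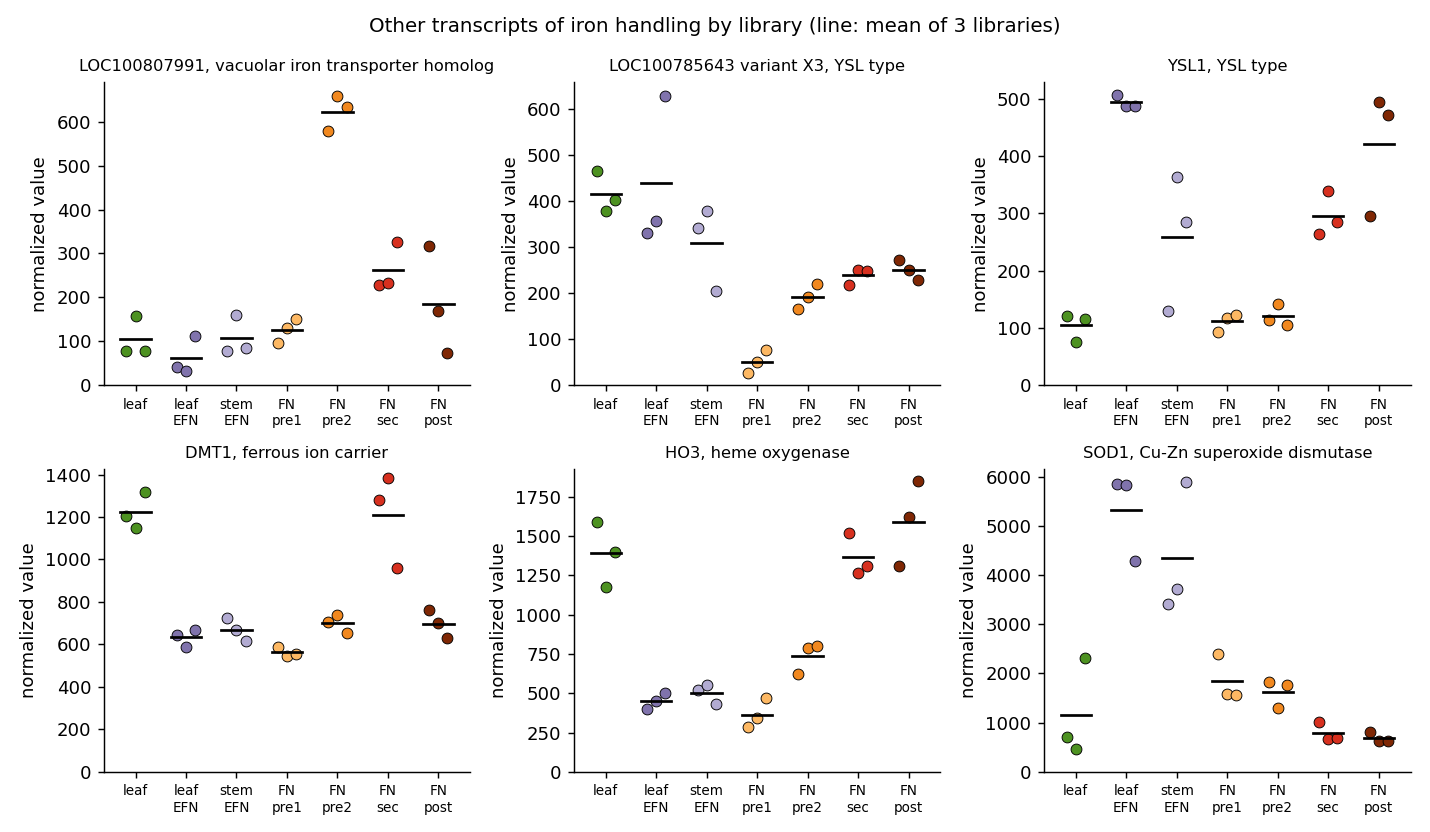
Normalized value (linear axes from 0) in 21 libraries of 6 iron-handling or related transcripts, by tissue, with a line at the mean of 3 libraries. LOC100807991 peaks in pre2 like FERRITIN, YSL1 and SOD1 are high in leaf EFN, SOD1 also in stem EFN, and DMT1 and HO3 are higher in secretory than in pre1 nectaries.

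Among 5 regulator rows, LOC100792038, which matches the iron sensor BRUTUS and also a CHY-type zinc finger gene, fell in floral nectaries (log2 difference -1.18, limma adjusted p = 1.89e-08) and in leaf EFN (-0.72, limma adjusted p = 0.000517). The other BRUTUS match among the 5, SNAP-1, which also matches other loci, rose in floral nectaries by 1.47 (limma adjusted p = 9.71e-05). In leaf EFN SNAP-1 did not pass (-0.07). LOC100813088, a match of the iron-response factor ILR3, rose in floral nectaries by 0.85 (limma adjusted p = 1.06e-06). LOC100817000, a bHLH121 match, rose from pre1 to pre2 by 0.84 (limma adjusted p = 0.00289).

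The 12 rows for iron-sulfur cluster assembly held 0 that rose and 6 that fell in leaf EFN against leaf, where 28.4% of all rows rose and 18.5% fell. The row with the smallest adjusted p there was LOC100527496, a match of the plastid scaffold SUFA (log2 difference -1.24, limma adjusted p = 9.88e-06). Mesophyll rows were also lower in leaf EFN, as given above, and their part in this result was not tested. In floral nectaries 3 rose and 6 fell, against 48% and 27.8% of all rows. Of these LOC100305724, a match of the plastid glutaredoxin GRXS14, fell (-4.75, limma adjusted p = 6.82e-14), and LOC100804713, a match of the mitochondrial NFU4, rose by 1.31 (limma adjusted p = 1.21e-08). LOC100526856, a match of the mitochondrial scaffold ISU1, rose from pre1 to the secretory stage by 1.80 (limma adjusted p = 1.33e-06). HO3, a heme oxygenase that frees iron from heme, fell in leaf EFN (-1.62, limma adjusted p = 1.54e-06) and rose from pre1 to the secretory stage by 1.93 (limma adjusted p = 1.5e-07). In floral nectaries against leaf HO3 fell (-0.67, limma adjusted p = 0.000426), with overlap. HEMG, an enzyme of heme synthesis, differed by 0.67 in floral nectaries against leaf and did not pass (limma adjusted p = 0.0601).

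Of 10 iron enzyme rows, 0 rose and 3 fell from pre1 to pre2, where 12.4% of all rows rose and 7.05% fell. The iron superoxide dismutase SODB2 was at 264, 558 and 588 in pre1 and at 139, 54 and 33 in pre2 (log2 difference -2.79, SE 0.57, limma adjusted p = 0.00212). The ferredoxin LOC100500372 had a mean of 22819 in leaf and of 67.7 to 104 in floral stages (log2 difference -7.80, limma adjusted p = 1.08e-14). Mesophyll rows summed to no more than 98 in the same floral libraries, and their part was not tested. LOC102668165, a non-coding row that matches the aconitase ACO3 and a BSD-domain gene, rose in floral nectaries by 2.42 (limma adjusted p = 2.18e-11). In leaf EFN against leaf 3 of the 10 rose and 2 fell, where 28.4% of all rows rose and 18.5% fell. CAT4, the catalase of leaf peroxisomes in its Arabidopsis match, fell (-2.08, limma adjusted p = 8.61e-07), as did the ferredoxin LOC100500372 (-2.02, limma adjusted p = 0.000193). The catalases CAT1 and CAT3 rose by 1.55 (limma adjusted p = 2.44e-05) and 1.75 (7.35e-05), and the ascorbate peroxidase APX1 by 1.23 (0.00029).

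The related copper-zinc superoxide dismutase SOD1 rose in leaf EFN, from 706, 467 and 2305 in leaf to 5846, 5835 and 4281 (log2 difference 2.53, SE 0.39, limma adjusted p = 3.94e-05). It rose in stem EFN too, to 3412, 3725 and 5883 (log2 difference 2.21, limma adjusted p = 0.000288), where FERRITIN overlapped with leaf. The plastid form LOC100527058, a CSD2 match, fell in floral nectaries (-4.62, limma adjusted p = 2.18e-12). CCS, the copper chaperone of these enzymes, also fell there (-0.80, limma adjusted p = 0.0394). That call did not hold when leaf library 1 (adjusted p = 0.0982) or leaf library 3 (0.641) was left out, nor with 5 floral libraries left out in turn or only leaf and floral libraries in the model (0.0506 to 0.0623).

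**Figure D4:**
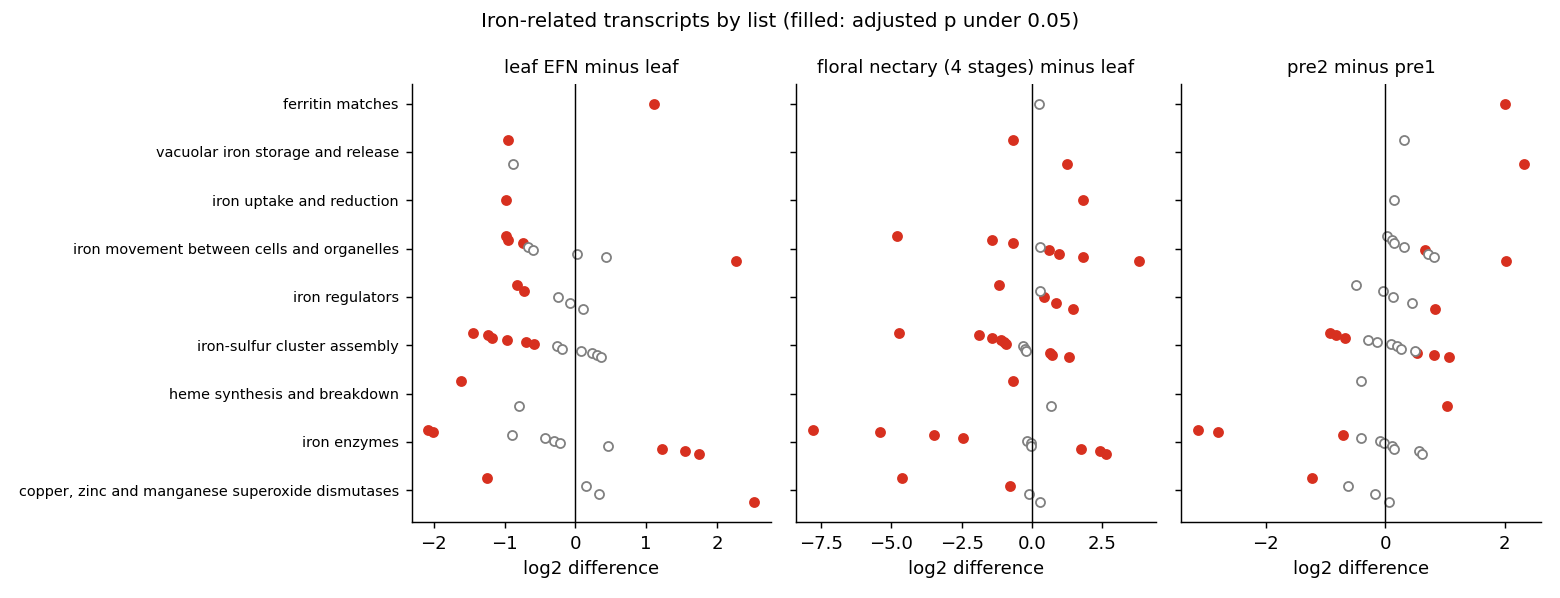
Log2 difference of each of the 43 listed rows outside FERRITIN and SFERH-2, by list, in 3 comparisons; filled points passed limma's test at an adjusted p under 0.05, the vertical line marks 0, and 2 rows appear in 2 lists. SFERH-4 lies at 1.11 in leaf EFN against leaf, 0.26 in floral nectaries against leaf and 2.00 from pre1 to pre2.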

How the data were processed

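RNA was sequenced as paired-end 50 bp reads over 2 lanes, per the labels' protocols. The deposited values are a score, upper-quartile normalized counts of bean reads on soybean transcripts that the authors rounded to whole numbers, per the file headers. The submitters' processing notes name DESeq without version or role, and for the mapper a name is not given in the sources used here. Every row of the deposited table was above 0 in library 1 of the secretory stage, while the other 20 libraries held zeros, which reads as a filter on that library. The authors' Y or N calls were copied as deposited.

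Values were transformed as log2(value + 1), so fold changes of low rows are understated. Rows whose mean reached 1 were kept for testing, 6351 in number, and 8 were left out. All 21 libraries entered 1 model with 7 group means and 14 residual degrees of freedom in limma 3.58.1 under R 4.3.3, with an intensity trend, two-sided, with Benjamini-Hochberg adjustment and a threshold of 0.05. The model was tested on simulated data. FERRITIN and SFERH-2 were given no p.

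Named rows are the chosen transcripts, every other ferritin row, the 5 rows most like each, and from each list the 2 rows with the smallest adjusted p in floral nectaries against leaf and 1 in each of leaf EFN against leaf, secretory against pre1, and post against pre2, with a mean of at least 10. Named rows are also given in other comparisons, and a row that shares a match or a gene with a named row may be given beside it. Lists are matched by the Arabidopsis loci in the table. The transcripts, lists and tests were chosen with earlier results of these data known. Alternatives were another pseudocount, filter, scaling or set of libraries, the replicate number as a block, and leaving out each library. No row matched the bean annotation by accession or symbol, so positions and sequences are not used here.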

Additional observations from a re-analysis of the deposited data

Results flagged for a closer look

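The change between the paired stages of a day, pre1 to pre2 and the secretory stage to post, was compared by an interaction contrast in limma, added after the data were seen, in which 14.6% of all rows passed. The values are log2 differences, the later change minus the earlier. Of the 43 listed rows 13 passed, and 10 of them were negative. With 1 library left out 6 to 14 passed, with 6 without pre2 library 2, pre2 library 3 or secretory library 3.

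SFERH-4 differed by -2.10 (SE 0.33, limma adjusted p = 0.000387), since it rose from pre1 to pre2 and differed by -0.11 from the secretory stage to post. This call passed with any 1 library left out. FERRITIN and SFERH-2, given without a test, differed by 2.74 and 3.97 in the earlier step and by -0.26 and 0.31 in the later one. LOC100807991, the vacuolar iron transporter homolog, differed by -3.04 (limma adjusted p = 0.00438).

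Among metal carriers the value was -1.95 for variant X3 and -1.59 for variant X1 of LOC100785643, -1.15 for variant X2 of LOC100799897, and -1.09 for DMT1. It was -1.001 for the bHLH121 match LOC100817000, -0.91 for the ISU1 match LOC100526856, -0.86 for LOC100500160, a cysteine desulfurase match, and -0.82 for HO3. Rows with the opposite sign were the iron superoxide dismutase SODB2 at 2.93, the frataxin match LOC100815916 at 0.90 and the aconitase match LOC102668163 at 0.78. The call was lost for 7 rows when single libraries were left out, with a largest adjusted p of 0.124 for HO3, 0.122 for LOC102668163, 0.117 for LOC100815916, 0.114 for LOC100526856, 0.108 for LOC100500160, 0.0698 for variant X1 of LOC100785643 and 0.0634 for SODB2 (limma). The other 6 calls passed with any 1 library left out. Variant X3 of LOC100785643 is among these 6. It was named for its likeness to SFERH-2 in these libraries, so nothing is read from its call.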

How the results depend on the processing

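Same-numbered libraries shared only a number: of 63 such pairs 7 had a correlation of deviations over 0.1, and none of 21 group pairs had all 3 over 0.1. With the replicate number as a block 2896 rows were called in leaf EFN against leaf (2980 without), 4782 in floral nectaries against leaf (4814), 1157 from pre1 to pre2 (1237) and 852 in the interaction (927). In the interaction 10 listed rows passed with the block, against 13, with an adjusted p of 0.0538 for LOC100500160, 0.0561 for LOC100526856 and 0.0549 for LOC100815916 (limma).

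With only the libraries of the groups compared, rows called were 1199 in stem EFN against leaf (2209 with all libraries), 2691 from pre2 to the secretory stage (1357), 679 from the secretory stage to post (364) and 1487 in the interaction (927). The listed rows called were then 23 from pre2 to the secretory stage (11) and 1 from the secretory stage to post (2). From stem EFN library 1 alone, added after the data were seen, 826 rows and 12 listed rows (20) were called against leaf, with the spread taken from the other tissues, and with differences of -0.96 for FERRITIN and -2.54 for SFERH-2.

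Leaving out 1 library gave ranges of 617 to 1408 rows from pre1 to pre2 (lowest without pre1 library 1), 833 to 1513 from pre2 to the secretory stage (without secretory library 2), 136 to 604 from the secretory stage to post (without post library 3) and 579 to 1073 in the interaction (without pre1 library 1). For listed rows these were 10 to 17, 5 to 14, 1 to 3 and 6 to 14. The cause of these shifts was not tested, beyond fewer libraries in each fit.

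Of 159 calls on listed rows, 52 missed the threshold under at least 1 alternative, and 0 values changed direction among calls.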
